A study of Homo sapiens with 6 samples.

Results

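The 37 genes described here encode the machinery of ER-associated degradation (ERAD). They were listed by name for their known roles in substrate recognition, ubiquitin ligation, extraction and shuttling, and all 37 were found among the 57905 genes counted. The samples were H929 cells, a human multiple myeloma cell line, from which total RNA was taken. In each reaction 5 µg of that RNA was kept for 1 h at 37 °C in the same buffer, with 2 µg of recombinant human IRE1 (amino acids 467 to 977) in the 3 IRE1-treated samples and without it in the 3 controls, and was then held at 95 °C for 5 min. Poly(A)-containing RNA was sequenced, so a transcript cleaved by the enzyme loses the part upstream of the cleavage, while reads from the part that keeps the poly(A) tail still enter the gene count. The counts on genes were 25678499, 22433916 and 21144515 in control replicates 1, 2 and 3, and 19615715, 21525644 and 23041598 in the IRE1-treated replicates, in the same order. The labels call the samples biological replicates without naming separate cultures, so the p-values measure the spread between these samples, which may be technical.

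ERAD removes misfolded proteins from the endoplasmic reticulum. Lectins and mannosidases of the lumen mark a glycoprotein for disposal, a membrane ligase complex around SYVN1 and SEL1L passes it through the membrane and attaches ubiquitin, and the ATPase VCP with its cofactors pulls it into the cytosol, where shuttle proteins bring it to the proteasome. Plasma cells and myeloma cells secrete or assemble much immunoglobulin and depend on this disposal route, and IRE1, a sensor of the unfolded protein response that cleaves RNA in hairpin loops, governs part of it through the splicing of XBP1 mRNA.

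The cell type in the labels was checked with markers. All 9 plasma cell markers were counted in every library, and JCHAIN was the most abundant, at 85402 ± 2495 normalized counts (SD, n = 3) in the controls. Summed over the 9 genes, normalized counts were 258012, 255492 and 253269 in the controls and 271062, 255614 and 253101 in the IRE1-treated samples. Single markers moved apart within that sum, without overlap between the groups: MZB1 and TNFRSF17 were higher in all 3 IRE1-treated samples than in any control, and PRDM1, IRF4 and XBP1 were lower. A normalized count is a gene count scaled to the average library after TMM adjustment. Of the 5 mature B cell markers, PAX5 was the most abundant in the controls, CD22 was at 0 in every library and MS4A1 reached at most 1 count. Of the 4 T cell markers, CD3E was counted, at 897, 940.4 and 914 normalized counts in the controls and 1177, 946 and 967 in the IRE1-treated samples, higher in the latter without overlap, while CD3D, CD2 and CD8A had at most 7 counts in any library. CSF1R led the 4 monocyte markers, HBB the erythroid, COL1A1 the 3 fibroblast and CDH1 the 3 epithelial markers, and HBA2 and KRT19 were at 0 in all 6 libraries.

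IRE1-treated replicate 1 stood apart from the other libraries of its group. Chi-square divided by the number of genes, which measures how far the counts of a pair differ, was 7.13 between IRE1-treated replicates 1 and 2 and 11.1 between replicates 1 and 3, against 3.40 between replicates 2 and 3 and 2.20 to 3.05 between controls. The ERAD genes past the threshold had a median absolute log2 shift from the control mean of 0.25, 0.21 and 0.12 in IRE1-treated replicates 1 to 3. The part of these differences between libraries in the results was not tested beyond leaving each library out.

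The reaction was also checked with known substrates. BLOC1S1, a subunit of a lysosome-related complex, had 606, 582 and 649 normalized counts in control replicates 1 to 3 and 275, 230 and 211 in IRE1-treated replicates 1 to 3. The groups were far apart, the treated one lower, and the log2 fold change was -1.37 (adjusted p = 1.25e-06, by edgeR's quasi-likelihood test and Benjamini-Hochberg adjustment). XBP1 had 60995, 58415 and 59795 normalized counts in the controls and 57255, 56745 and 54060 in the IRE1-treated samples. Its groups did not overlap either, but the log2 fold change of -0.09 was not past the threshold (edgeR, adjusted p = 0.143), though it was with the trend with transcript length and GC content removed (-0.21), with library size as the scaling (-0.17) and without IRE1-treated replicate 1 (-0.11).

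Sites that match the consensus CUGCAG are shown for these substrates and, as examples chosen after the values were seen, for 4 of the ERAD genes that were lower after IRE1 treatment, because this hexamer lies at the cleavage site of known substrates. Each line gives 30 bases of the longest annotated transcript, written with T for U, with the hexamer in capitals. Only sites with the third base of the hexamer unpaired in a predicted hairpin loop are shown. The loop was predicted from the hexamer and 15 bases on either side. UBXN4 had 2 sites, 1 of them in a loop, and RAD23B, also lower, had 4 sites with none in a loop.
XBP1: ctacgtgcacctCTGCAGcaggtgcaggcc
BLOC1S1: gagaggctatcaCTGCAGcgacctgcctga
SEL1L, upstream site: aggaccatactaCTGCAGgcagagtagttg
SEL1L, downstream site: gcgattacaatgCTGCAGtgatccagtacc
UBXN4: cagatcagagacCTGCAGaggacctcaaca
UBQLN1: attcagcagatgCTGCAGgctcttgctgga
EDEM1: tataactggcagCTGCAGgcccctgacgtt

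In GRCh37 the XBP1 site shown lies on the minus strand at chr22:29192100-29192129 and the BLOC1S1 site shown on the plus strand at chr12:56110729-56110758. BLOC1S1 had 3 sites, all in predicted loops, and which of them IRE1 cleaves was not tested here. The SEL1L sites lie on the minus strand at chr14:81993251-81993280 and chr14:81952696-81952725. The sites of UBXN4 (plus strand, chr2:136519439-136519468), UBQLN1 (minus strand, chr9:86278802-86278831) and EDEM1 (plus strand, chr3:5249865-5249894) are in coding sequence, as are those of XBP1, BLOC1S1 and SEL1L. The predicted loop had 7 bases in XBP1, 8 in the BLOC1S1 site shown, 8 and 9 in the SEL1L sites, 8 in EDEM1, 4 in UBXN4 and 3 in UBQLN1. Its closing stem had 7 pairs in XBP1, 6 in each SEL1L site and 3 in BLOC1S1, EDEM1, UBXN4 and UBQLN1.

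At baseline, the transcripts of the 37 listed ERAD genes were abundant in H929 cells. The level per length was measured as TPM over all annotated exons of a gene, and the median of the 37 genes was 59.0 TPM in the controls, against 13.6 TPM for the 12225 protein-coding genes tested. All 37 genes were above that second value. A second list of 54 other ERAD genes, described below, had a median of 26.2 TPM. Some of those genes were below 13.6 TPM, such as TRIM13 at 1.47 TPM. These levels are those of bulk RNA, in which fewer cells of a type and less RNA per cell cannot be told apart.

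The highest level was that of UBE2J1, a ubiquitin-conjugating enzyme anchored in the ER membrane, with 592, 595 and 552 TPM in control replicates 1, 2 and 3. HERPUD1, a membrane protein that joins the ligase complex, had 388, 385 and 380 TPM. AUP1, which recruits the conjugating enzyme UBE2G2, had 330, 340 and 328 TPM. These 3 genes were separated from one another and from the next gene in all controls. SYVN1, the ligase itself, had 279, 292 and 290 TPM and DERL3, a derlin of secretory cells, had 269, 275 and 287 TPM. The ranges of these last genes overlapped, so their order was not resolved. The lowest levels were those of ERLEC1, a lectin, at 16.4 ± 0.489 TPM and UBXN8, a membrane tether of VCP, at 15.9 ± 0.276 TPM (SD, n = 3 each), which also overlapped. Of the 36 neighbouring pairs in the order of levels, 17 overlapped between control libraries.

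**Figure D1:**
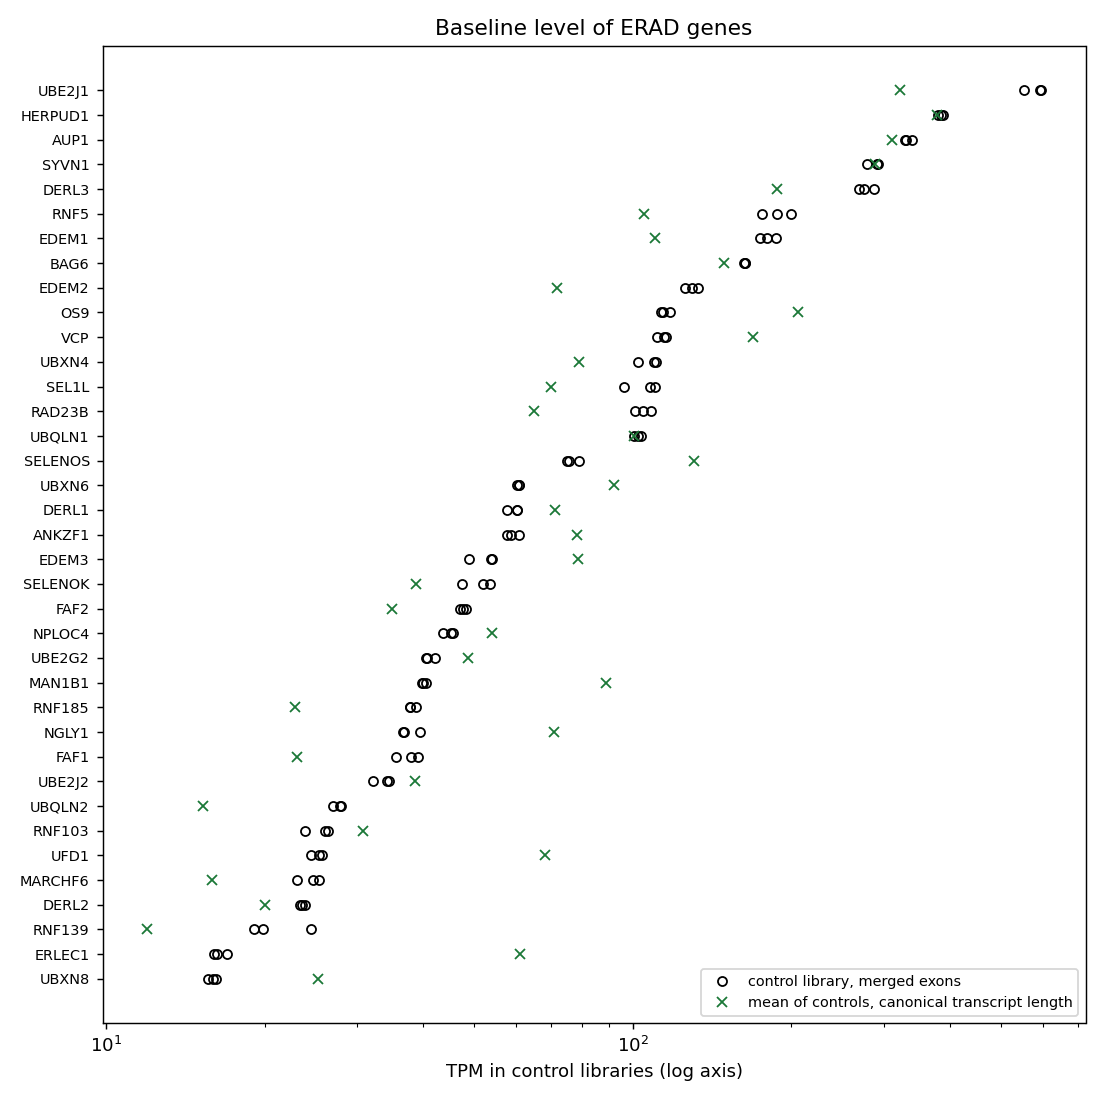
Level of each of the 37 ERAD genes in the 3 control libraries (circles, TPM over merged exons, log axis), in falling order of the mean, with the mean TPM by the length of the canonical transcript as crosses. Levels run from 15.9 TPM for UBXN8 to 580 TPM for UBE2J1, and the crosses depart from the circles most where merged exons are much longer than 1 transcript.

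The order depended on the length taken for each gene. With the length of the canonical transcript, an alternative chosen after seeing the data, HERPUD1 came first at 378 TPM and UBE2J1 next at 321 TPM. For 19 of the 37 genes that length moved the level by over 1.5 times, and the median became 71.1 TPM. With it UFD1, a VCP cofactor, went from 25.2 to 68.0 TPM and ERLEC1 from 16.4 to 61.0 TPM. Spearman's rho between both sets of levels was 0.87 across the 37 genes.

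IRE1 treatment was compared with control for every gene with enough counts by edgeR's filter, as all 37 ERAD genes had. With an adjusted p under 0.05, 9 of the 37 were lower in IRE1-treated samples and 6 were higher, and 22 did not pass by edgeR's quasi-likelihood test and Benjamini-Hochberg adjustment. Over all 14398 genes tested, 3270 passed, which is 22.7%, with 12.4% lower and 10.3% higher. The share in the ERAD list was 40.5%. The median log2 fold change was 0.02 over the 37 genes and 0.00 over all genes tested. The groups did not overlap for 20 of the 37 genes, or 54.1%, against 39.1% of all genes tested. The median control level was 2143 normalized counts over the 37 genes and 380 over all genes tested. The part of level in the shares was not tested. These shares describe the list, whose members were chosen with earlier results of these data known.

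The number of genes called in each direction depended on the scaling. With library size in place of TMM, 10 ERAD genes were lower and 1 was higher, and over all genes 2594 were lower and 684 higher in place of 1781 and 1489. The counts also moved with single libraries. With control replicate 1 left out 4 were lower and 3 higher, with control replicate 2 left out 4 and 1, and with control replicate 3 left out 5 and 2. With IRE1-treated replicate 1 left out they were 7 and 5, with replicate 2 left out 4 and 2, and with replicate 3 left out 10 and 11. Over all genes tested 1681, 1630 and 2307 passed with control replicates 1 to 3 left out, and 3099, 1982 and 4312 with IRE1-treated replicates 1 to 3 left out, in place of 3270. Of the 15 genes past the threshold, EDEM3, UBXN4 and UBQLN1 passed in all 16 alternatives. SELENOS passed in 14, SEL1L in 13, OS9 in 11 and FAF1 in 10, and the other 8 genes in 4 to 7. With limma on the authors' CPM and a pseudocount of 1, SEL1L, EDEM3, UBXN4, UBQLN1 and SELENOS passed, and SEL1L did not with a pseudocount of 0.1. With the replicate block EDEM1, MARCHF6, AUP1, FAF2, RAD23B and UBQLN2 were not past the threshold, nor was AUP1 without a filter or UBQLN2 with DESeq2 size factors.

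**Figure D2:**
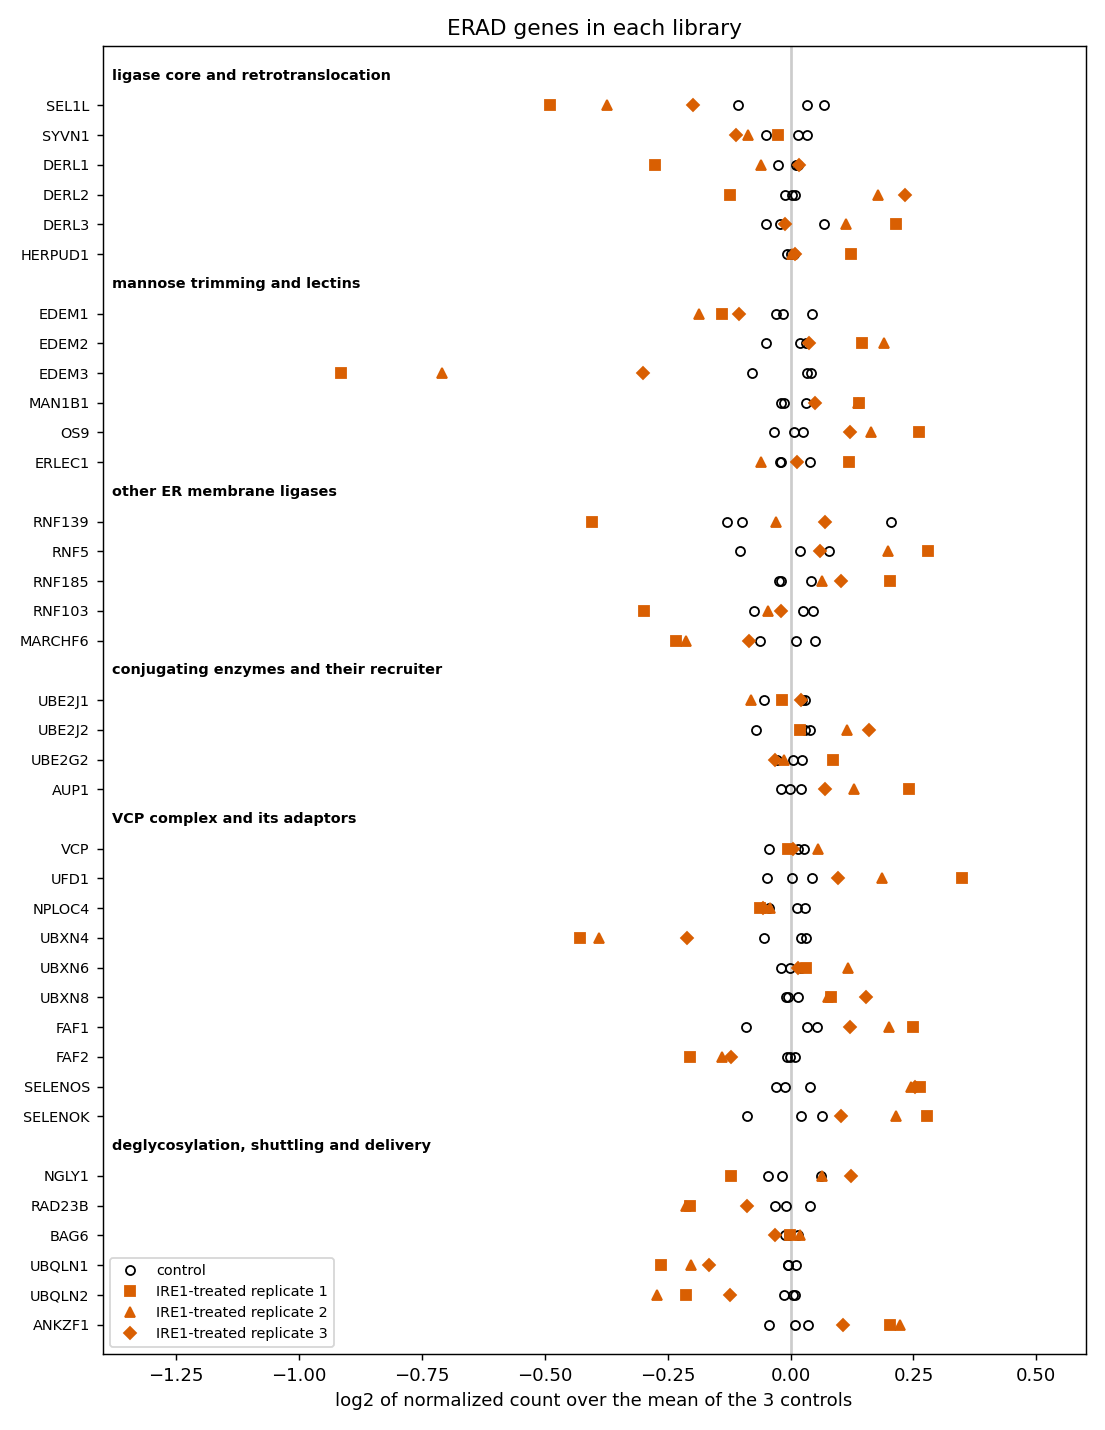
Normalized count of each ERAD gene in each library as log2 of its ratio to the mean of the 3 controls, ordered by role, with controls as open circles and IRE1-treated replicates as filled symbols. EDEM3 has the widest shift, and IRE1-treated replicate 3 (diamonds) lies nearer to the controls than replicate 1 (squares) for EDEM3, SEL1L and UBXN4.

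Of the 6 ligase core and retrotranslocation genes, SEL1L passed the threshold. SEL1L, the adaptor that holds the ligase complex together, had 6766, 6930 and 6135 normalized counts in control replicates 1 to 3 and 4707, 5099 and 5760 in IRE1-treated replicates 1 to 3. The groups did not overlap, with the smallest gap between control replicate 3 and IRE1-treated replicate 3. For SEL1L the log2 fold change was -0.35 (SE 0.0664; edgeR, adjusted p = 0.00191), ranging from -0.43 to -0.28 when single libraries were left out. Removing each library's trend with transcript length and GC content brought it to -0.11, no longer past the threshold (edgeR, adjusted p = 0.105, the alternatives giving 1.45e-10 to 0.172).

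SYVN1, which shares exons with FAU on the same strand and MRPL49 on the other, had 10077, 10547 and 10676 normalized counts in the controls and 10243, 9819 and 9663 in the IRE1-treated samples. The groups overlapped, and the log2 fold change of -0.07 passed the threshold only with library size as the scaling, at -0.15. DERL1, a channel component, had 2754, 2748 and 2679 normalized counts in the controls and 2252, 2616 and 2758 after IRE1. For DERL1, IRE1-treated replicates 1 and 2 were below every control, and replicate 3 was above every control.

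DERL2, its paralog, had 1001, 987 and 996 normalized counts in the controls and 914, 1125 and 1169 after IRE1. Here too replicate 1 was the lowest library, and the other two were the highest. DERL3 had 6715, 6847 and 7284 in the controls and 8060, 7513 and 6899 after IRE1, and HERPUD1 had 12924, 12793 and 12863 in the controls and 14011, 12878 and 12931 after IRE1. For both genes the groups overlapped and replicate 1 was the highest library. None of these 4 genes passed the threshold, with log2 fold changes of -0.10 for DERL1, 0.11 for DERL2, 0.11 for DERL3 and 0.05 for HERPUD1. Single alternatives gave a call for DERL1 (-0.16) and DERL3 (0.17), both without IRE1-treated replicate 3, and for DERL2 without IRE1-treated replicate 1 (0.21) and with the length and GC trend removed (0.21). In the other direction, DERL1 was at -0.02 and DERL3 at 0.06 without IRE1-treated replicate 1, and DERL2 was at 0.04 without IRE1-treated replicate 3. With library size as the scaling DERL1 was at -0.17, DERL2 and DERL3 were each at 0.03, and HERPUD1 turned to -0.03.

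The mannosidase-like EDEM proteins trim glycans of misfolded proteins, and EDEM3 and EDEM1 passed the threshold while EDEM2 did not, a difference that was not itself tested. EDEM3 had 6603, 6568 and 6076 normalized counts in the controls and 3403, 3926 and 5209 after IRE1. Its IRE1-treated samples lay below all controls and were spread widely, replicate 3 being the nearest to the controls. The log2 fold change of EDEM3 was -0.62 (SE 0.103; edgeR, adjusted p = 0.000780), the lowest of the 37 genes, and its mean after IRE1 was 65.1% of the control mean. It stayed past the threshold with each library left out, between -0.80 and -0.49, and with the length and GC trend removed, at -0.41.

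EDEM1 had 8279, 7951 and 7868 normalized counts in the controls and 7290, 7061 and 7474 after IRE1, with no overlap. Its log2 fold change of -0.14 (edgeR, adjusted p = 0.0346) passed without IRE1-treated replicate 1 (-0.14) or 3 (-0.16) but not without control replicates 1 to 3 (-0.12, -0.15 and -0.16) or IRE1-treated replicate 2 (-0.12), and it turned to 0.02 when the trend was removed. With library size as the scaling it was -0.22. EDEM2 had 1556, 1647 and 1633 normalized counts in the controls and 1783, 1838 and 1653 after IRE1. Its IRE1-treated samples lay above all controls, replicate 3 by a small margin, and the log2 fold change of 0.12 did not pass (edgeR, adjusted p = 0.114), though it did without IRE1-treated replicate 3, at 0.17. EDEM2 was at 0.01 with the trend removed and at 0.05 with library size as the scaling.

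OS9, a lectin that delivers glycoproteins to SEL1L, had 6722, 6453 and 6634 normalized counts in the controls and 7919, 7393 and 7175 after IRE1. Every IRE1-treated sample was above every control. The log2 fold change of OS9 was 0.18 (SE 0.0487; edgeR, adjusted p = 0.0139), 0.15 with the trend removed and 0.11 with library size as the scaling, where it was not past the threshold. It was also not past it without control replicate 2 (0.17) or 3 (0.19). OS9 shares exons with AGAP2-AS1 on the same strand and AGAP2 on the other. The remaining lectin-side genes did not pass: MAN1B1, a mannosidase, was at 0.11, past the threshold without IRE1-treated replicate 3 (0.14) and 0.03 with library size as the scaling, and ERLEC1 at 0.02, or -0.05 with library size as the scaling.

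**Figure D3:**
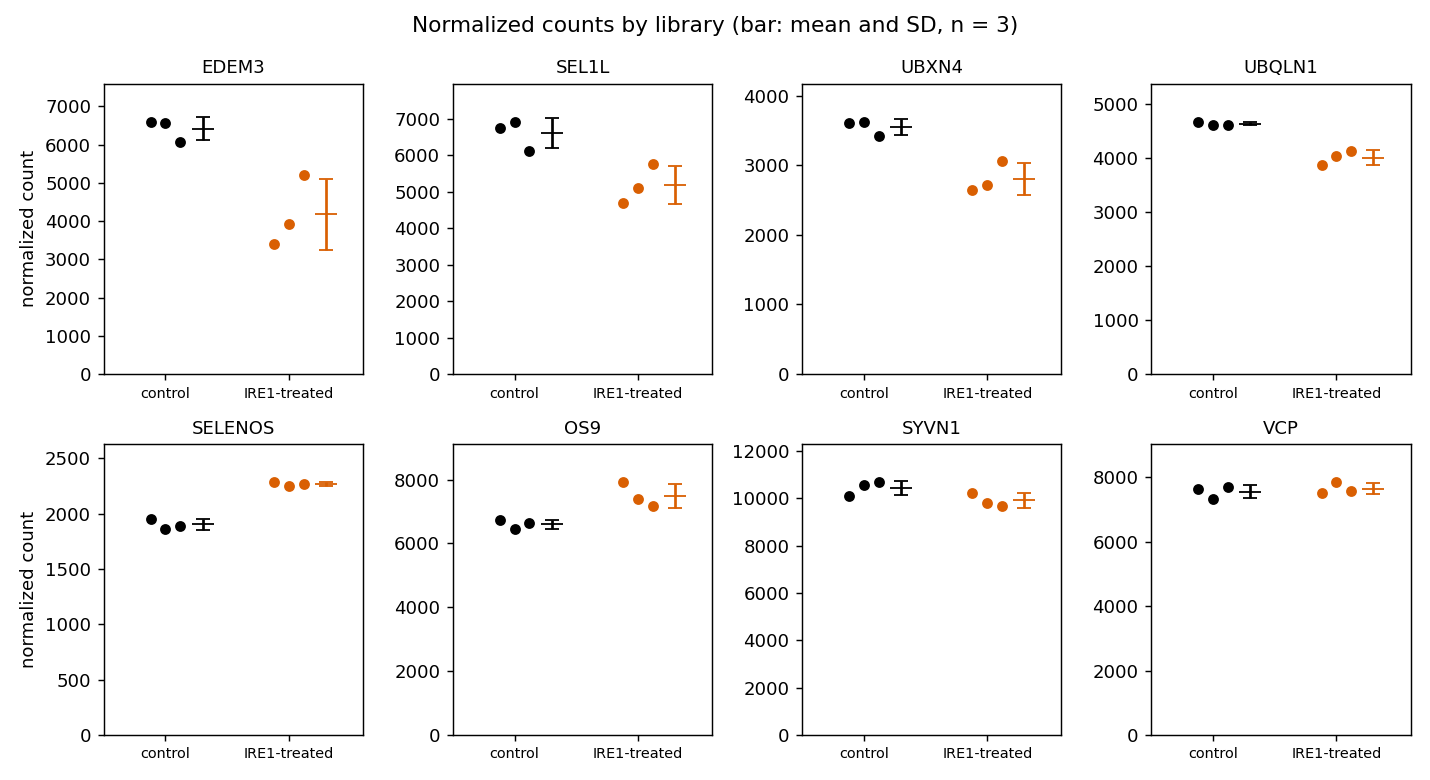
Normalized counts of 8 ERAD genes in each of the 3 control and 3 IRE1-treated libraries (points) with the mean and SD beside them, on axes that start at 0. EDEM3, SEL1L, UBXN4 and UBQLN1 are lower and SELENOS and OS9 higher after IRE1 without overlap, and SYVN1 and VCP overlap.

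Among the other ER membrane ligases, MARCHF6, which handles membrane proteins and sterol enzymes, had 1892, 1841 and 1749 normalized counts in the controls and 1555, 1577 and 1722 after IRE1. The gap between the groups was narrow at replicate 3 of each. Its log2 fold change of -0.18 (edgeR, adjusted p = 0.0332) passed only without control replicate 3 (-0.21) or IRE1-treated replicate 3 (-0.22) among the fits with a library left out, lying at -0.15 and -0.17 without control replicates 1 and 2 and at -0.15 and -0.16 without IRE1-treated replicates 1 and 2, and it turned to 0.10 with the trend removed. RNF5, RNF185, RNF103 and RNF139 did not pass, with log2 fold changes of 0.18, 0.12, -0.11 and -0.10. With each library left out RNF103 lay between -0.16 and -0.03 and RNF139 between -0.19 and 0.03, and RNF185 was at 0.05 with library size as the scaling. RNF5 was just outside the threshold (edgeR, adjusted p = 0.0545), its groups overlapped, and it passed without IRE1-treated replicate 3 (0.24) and without the filter on counts (0.17). With the trend removed RNF5 was at 0.00, and with library size as the scaling at 0.10. Exons of RNF103 and RNF139 are overlapped by a gene of the same strand, and 1 pseudogene is named after RNF5.

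Of the conjugating enzymes and their recruiter, UBE2J1 had 16216, 16288 and 15377 normalized counts in the controls and 15766, 15096 and 16191 after IRE1, which overlap. AUP1 had 5324, 5479 and 5390 in the controls and 6380, 5903 and 5667 after IRE1, without overlap. The log2 fold change of AUP1 was 0.15 (edgeR, adjusted p = 0.0449), the value just inside the threshold, and of the fits with a library left out it passed only without IRE1-treated replicate 3 (0.19), being 0.14, 0.16 and 0.15 without control replicates 1 to 3 and 0.10 and 0.16 without IRE1-treated replicates 1 and 2. It was 0.01 with the trend removed and 0.07 with library size as the scaling, and did not pass with either. UBE2J2 and UBE2G2, which hand ubiquitin to the ligases, were at 0.10 and 0.01 and did not pass, and UBE2G2 was at -0.06 with library size as the scaling.

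VCP, the ATPase that extracts substrates, had 7633, 7329 and 7700 normalized counts in the controls and 7530, 7850 and 7585 after IRE1. The groups overlapped, and the log2 fold change of 0.02 passed only with the length and GC trend removed, at 0.17 (also with the replicate block), while it was -0.06 with library size as the scaling. UFD1, which binds VCP together with NPLOC4, had 1406, 1455 and 1497 in the controls and 1849, 1651 and 1554 after IRE1. UFD1 was higher in every IRE1-treated sample than in every control, with a log2 fold change of 0.21 (edgeR, adjusted p = 0.0231). Of the fits with a library left out it passed only without control replicate 3 (0.23) or IRE1-treated replicate 3 (0.27), being 0.19 and 0.21 without control replicates 1 and 2 and 0.14 and 0.23 without IRE1-treated replicates 1 and 2, and it did not pass with the trend removed (0.10) or with library size as the scaling (0.14).

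NPLOC4 had 2740, 2853 and 2884 normalized counts in the controls and 2707, 2746 and 2718 after IRE1, an overlap by 1 sample, and its log2 fold change of -0.05 did not pass. Thus the partners of this heterodimer were on different sides of the threshold, a difference that was not itself tested.

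UBXN4, an ER membrane protein that tethers VCP, had 3601, 3627 and 3415 normalized counts in the controls and 2636, 2708 and 3065 after IRE1. All IRE1-treated samples were below all controls. For UBXN4 the log2 fold change was -0.34 (SE 0.0575; edgeR, adjusted p = 0.000896), between -0.40 and -0.29 with each library left out and -0.26 with the trend removed, past the threshold each time. FAF2, another membrane adaptor, had 1857, 1876 and 1862 in the controls and 1619, 1694 and 1714 after IRE1, again without overlap. Its log2 fold change was -0.15 (edgeR, adjusted p = 0.0339), and of the fits with a library left out it passed only without IRE1-treated replicate 3 (-0.17), being -0.16, -0.15 and -0.16 without control replicates 1 to 3 and -0.13 and -0.16 without IRE1-treated replicates 1 and 2. With the trend removed FAF2 was at -0.07 and did not pass.

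SELENOS, a selenoprotein that links VCP to the derlins, had 1955, 1864 and 1889 normalized counts in the controls and 2284, 2254 and 2268 after IRE1. These were tight groups with no overlap. For SELENOS the log2 fold change was 0.25 (SE 0.0478; edgeR, adjusted p = 0.00180), the highest of the 37 genes, and it passed with each library left out. It was 0.11 with the trend removed, no longer past the threshold (edgeR, adjusted p = 0.107, the alternatives giving 0.00021 to 0.183).

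FAF1, a soluble relative of FAF2, had 1943, 1758 and 1916 normalized counts in the controls and 2223, 2149 and 2035 after IRE1. The IRE1-treated samples of FAF1 were above all controls, in the opposite direction to FAF2. Its log2 fold change was 0.19 (edgeR, adjusted p = 0.0221) and was 0.37 with the trend removed, but with library size as the scaling it was 0.11 and did not pass. It was also not past the threshold without control replicate 2 (0.15) or 3 (0.21) or without IRE1-treated replicate 2 (0.18). A gene of the same strand overlaps exons of FAF1. SELENOK was just outside the threshold at 0.20 (edgeR, adjusted p = 0.0506), without overlap between the groups, and past it without IRE1-treated replicate 3 (0.25), with upper quartile scaling (0.20) and with at least 10 counts in every library (0.19). It was at 0.08 with the trend removed and 0.12 with library size as the scaling, and 3 pseudogenes are named after it. UBXN6 and UBXN8 were at 0.05 and 0.11 and did not pass, and UBXN6 was at -0.02 with library size as the scaling. UBXN8 was at 0.0045 with the trend removed and at 0.03 with library size as the scaling.

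The shuttle factors UBQLN1, UBQLN2 and RAD23B, which carry ubiquitylated proteins to the proteasome, fell. UBQLN1 had 4674, 4616 and 4617 normalized counts in the controls and 3861, 4027 and 4131 after IRE1. The IRE1-treated samples of UBQLN1 were all below the controls, whose values were nearly equal. Its log2 fold change was -0.21 (SE 0.0461; edgeR, adjusted p = 0.00451), between -0.23 and -0.18 with each library left out and -0.15 with the trend removed, past the threshold each time. UBQLN2 had 776, 779 and 766 in the controls and 668, 641 and 710 after IRE1, and RAD23B had 3171, 3279 and 3122 in the controls and 2767, 2752 and 3002 after IRE1. Neither gene showed overlap. Their log2 fold changes were -0.20 (edgeR, adjusted p = 0.0340) and -0.17 (edgeR, adjusted p = 0.0257), and of the fits with a library left out both passed only without IRE1-treated replicate 1 (-0.19 and -0.15) or 3 (-0.24 and -0.20). Without control replicates 1 to 3 UBQLN2 was at -0.20, -0.20 and -0.21 and RAD23B at -0.17, -0.15 and -0.18, and without IRE1-treated replicate 2 they were at -0.17 and -0.14. With the trend removed UBQLN2 was at -0.12 and RAD23B at -0.09, neither past the threshold. RAD23B has 3 pseudogenes named after it, and UBQLN1 and FAF2 have 1 each.

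ANKZF1, which releases nascent chains from stalled ribosomes, had 2437, 2308 and 2394 normalized counts in the controls and 2739, 2776 and 2564 after IRE1. It was higher in every IRE1-treated sample, with a log2 fold change of 0.18 (edgeR, adjusted p = 0.0189). Of the fits with a library left out it passed only without IRE1-treated replicate 1 (0.17) or 3 (0.22), being 0.20, 0.16 and 0.18 without control replicates 1 to 3 and 0.16 without IRE1-treated replicate 2. ANKZF1 was also not past it with library size as the scaling (0.10) or with the trend removed (0.12). BAG6, a chaperone for released substrates, and NGLY1, which removes their glycans, were at -0.00 and 0.03 and did not pass, and NGLY1 was at -0.05 with library size as the scaling.

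Counts of genes that share exons with others are uncertain, since the strand setting of the counting was not stated. On the opposite strand, annotated genes overlap exons of DERL1 (TBC1D31), DERL2 (MIS12), DERL3 (SMARCB1), ERLEC1 (ASB3), RNF185 (RNF185-AS1), AUP1 (HTRA2), UFD1 (UFD1-AS1), NPLOC4 (TSPAN10), UBXN6 (CHAF1A), NGLY1 (OXSM), BAG6 (APOM), UBQLN1 (UBQLN1-AS1), ANKZF1 (GLB1L) and MARCHF6 (MARCHF6-DT), and of RNF139 (TATDN1) and RNF103 (CHMP3-AS1). EDEM1 overlaps a gene without a symbol there, and BLOC1S1 overlaps ITGA7 there and a gene without a symbol on its own strand. Of the other ERAD genes named, NSFL1C shares exons with SIRPB2 on the same strand, and STUB1 (JMJD8), YOD1 (PFKFB2), UBE4A and ERLIN2 with a gene on the opposite strand.

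By role, 1 of 6 ligase core genes, 3 of 6 mannose trimming and lectin genes, 1 of 5 other membrane ligases, 1 of 4 conjugating enzyme genes, 5 of 10 VCP genes and 4 of 6 deglycosylation and shuttle genes passed the threshold in either direction, beside 22.7% of all genes tested. Of the 12 genes whose proteins are cytosolic or nuclear, 3 were lower and 3 higher, and of the 25 with proteins in the ER membrane or lumen, 6 were lower and 3 higher, beside 12.4% lower and 10.3% higher over all genes tested. Summed over the 37 genes, the share of gene counts was 6592, 6606 and 6506 CPM in the controls and 5949, 6076 and 6267 in the IRE1-treated samples. On the TMM scale the sums were 142844, 142643 and 141322 normalized counts in the controls and 139714, 137922 and 139952 after IRE1. The IRE1-treated samples were below the controls on both scales. On the TMM scale the group means were 142270 and 139196. Mean normalized counts of EDEM3 went from 6416 to 4179 and those of SEL1L from 6610 to 5188. Of the 37 genes, 21 had a log2 fold change above 0 and 16 below it. With library size as the scaling, the median log2 fold change over all genes tested was -0.071.

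The fold changes followed transcript length. Spearman's rho between log2 fold change and the length of the longest transcript was -0.70 across the 37 ERAD genes and -0.63 across 12207 protein-coding genes tested. With GC content rho was 0.50 and 0.26. These are correlations across genes, which share the same libraries and are not independent replicates. All 9 lower ERAD genes had transcripts over the median of 3578 bases for protein-coding genes, from 3771 to 9641 bases. Of the 6 higher genes, from 1439 to 6821 bases, FAF1 was over it.

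**Figure D4:**
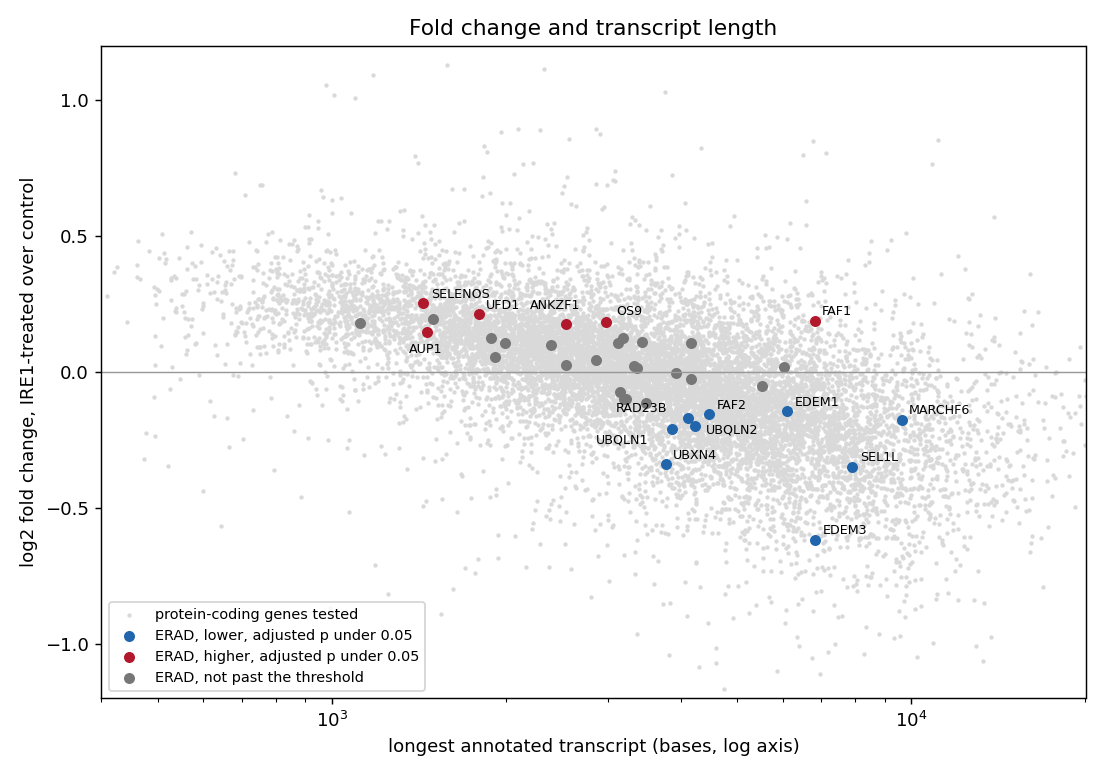
Log2 fold change of IRE1-treated over control against the length of the longest annotated transcript (log axis), for protein-coding genes tested (grey) and the 37 ERAD genes (coloured by call), with 42 genes outside the axes. The ERAD genes lower after IRE1 lie at 3771 bases and over, and FAF1, at 6821 bases, is the longest of those that were higher.

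When the trend with length and GC content was removed from each library, rho with length became -0.08 across the 37 genes, and 3 ERAD genes were lower and 4 higher. The lower ones were EDEM3, UBXN4 and UBQLN1. The higher ones were FAF1, OS9, VCP and DERL2. The length used was that of the longest annotated transcript, 6033 bases for VCP, and no other length was tried in this removal. Over all genes 653 were then lower and 1018 higher. The part of length in the ERAD fold changes beyond this comparison was not tested.

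**Figure D5:**
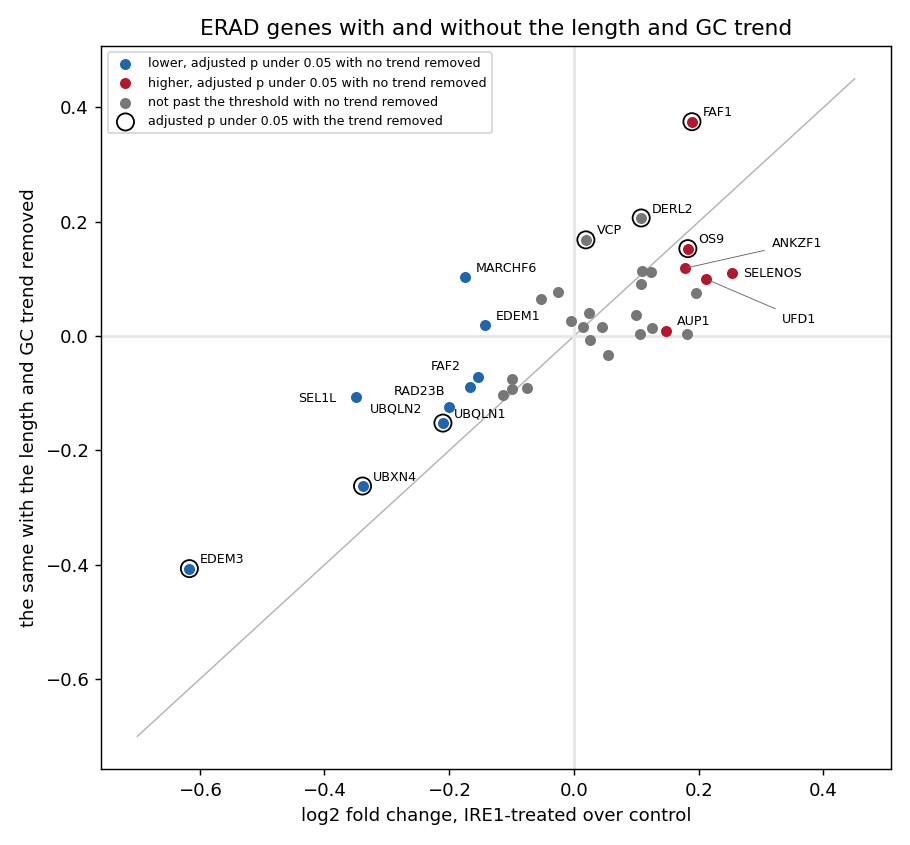
Log2 fold change of the 37 ERAD genes as measured (horizontal) and after removal of each library's trend with length and GC content (vertical), with equality as the diagonal line and rings around genes past the threshold with the trend removed. EDEM3, UBXN4 and UBQLN1 keep their side, MARCHF6 and EDEM1 cross 0, and FAF1, VCP and DERL2 move up.

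The hexamer CUGCAG occurred 94 times in the longest transcripts of the 37 genes, with 51 sites in coding sequence, 41 in 3′ UTRs and 2 in 5′ UTRs. It was present in 28 of the 37 genes (75.7%), against 86.7% of 12207 protein-coding genes tested. A site in a predicted hairpin loop was present in 20 of the 37 (54.1%), against 60.6%. Among the 9 lower ERAD genes 7 had such a site, among the 6 higher genes 2 and among the rest 11 of 22 (77.8%, 33.3% and 50.0%). Over the protein-coding genes tested the same shares were 74.3% of those lower, 37.9% of those higher and 61.5% of the rest. Per kilobase, looped sites numbered 0.275 in the lower, 0.294 in the higher and 0.317 in the remaining ERAD genes, against 0.246, 0.256 and 0.3001 over the same groups of protein-coding genes. EDEM3, the lowest gene, had no CUGCAG in its transcript of 6837 bases, and SEL1L had 3 sites, all in predicted loops. EDEM1 had 8 sites, 5 of them in loops. A match is a description of the sequence and not a measured cleavage.

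Other ERAD genes were taken as a second list of 54 from knowledge of the pathway. Of these, 53 were tested and NCCRP1 was at 0 in all libraries. With an adjusted p under 0.05, 4 were lower and 5 higher, which is 17.0% of those tested, beside 22.7% of all genes by edgeR's quasi-likelihood test and Benjamini-Hochberg adjustment, and the median log2 fold change was 0.02. With library size as the scaling 8 were lower and 2 higher, and with the trend removed 1 was lower and 8 were higher. With control replicate 1 left out 2 were lower and 2 higher, and with control replicate 2 left out 3 and 2. With IRE1-treated replicate 2 left out they were 3 and 3, and with replicate 3 left out 7 and 8.

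The lower genes of that list were YOD1, a deubiquitylase of the VCP pathway, at -0.50, UBE4A, a ubiquitin chain elongation factor, at -0.42, UGGT1, the folding sensor of glycoproteins, at -0.29 and ERLIN2, a membrane scaffold, at -0.22. With the trend removed YOD1 was at -0.29, UGGT1 at -0.01 and ERLIN2 at -0.07, none of them past the threshold. UBE4A had 2500, 2504 and 2328 normalized counts in the controls and 1743, 1737 and 2012 after IRE1. It fell without overlap and passed in all 16 alternatives, at -0.24 with the trend removed. YOD1 rested on few counts, with 190, 188 and 163 normalized counts in the controls and 80.2, 150 and 148 after IRE1. IRE1-treated replicate 1 was far below the rest, and of the fits with a library left out YOD1 passed only without IRE1-treated replicate 3, being -0.46, -0.47 and -0.57 without control replicates 1 to 3 and -0.28 and -0.63 without IRE1-treated replicates 1 and 2. ERLIN2 was not past the threshold without control replicate 1 (-0.20).

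The higher ones were the VCP cofactors UBXN1 at 0.36 and NSFL1C at 0.30, the ligase STUB1 at 0.21, the export receptor BCAP31 at 0.18 and the cochaperone SGTA at 0.16. UBXN1 had 2116, 2115 and 2119 normalized counts in the controls and 2930, 2717 and 2509 after IRE1. It rose without overlap and passed in all 16 alternatives, at 0.21 with the trend removed. With library size as the scaling STUB1 was at 0.14, BCAP31 at 0.10 and SGTA at 0.08, and with the trend removed they were at 0.11, 0.07 and 0.13, not past the threshold in either case. Calls were also lost with single libraries left out: NSFL1C without control replicate 1 (0.29), STUB1 without control replicate 2 (0.20), and BCAP31 without control replicate 1 (0.18), control replicate 2 (0.17) or IRE1-treated replicate 2 (0.16). SGTA passed only without IRE1-treated replicate 3, being 0.13, 0.17 and 0.17 without control replicates 1 to 3 and 0.11 and 0.16 without IRE1-treated replicates 1 and 2.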

How the data were processed

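Poly(A) RNA of 6 reactions was sequenced. The authors trimmed reads (cutadapt 1.12), aligned them to GRCh37 (STAR 2.5.3a) and counted them per Ensembl gene (HTSeq 0.6.1p1), with strand and overlap settings unstated, and deposited raw counts for each library. A CPM table, which the authors made with edgeR 3.24.3, served as an alternative. The 5 lines naming no gene were left out.

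Here edgeR 4.0.16 in R 4.3.3 was fitted to 14398 genes kept by its count filter, of 24945 with any count. It was used with TMM, the quasi-likelihood test, Benjamini-Hochberg adjustment, a threshold of 0.05 and no covariates. On simulated data the procedure called 86 of 100 genes changed 2-fold and 38 of 100 changed by a log2 of 0.3. It also called 1 unchanged gene. Depth was 19615715 to 25678499 gene counts. Alternatives were DESeq2 1.42.0 size factors, library size, upper quartile, no filter, a minimum of 10 counts in each library, limma 3.58.1 on the CPM table (pseudocount 1 or 0.1), a block for replicate number, removal of a loess trend (span 0.5) with length and GC content, the block and that removal together, and omission of single libraries. Gene models and bases were those of GENCODE 44 mapped to GRCh37, folded with ViennaRNA 2.7.2. Per-library values are given for members past the threshold, the 5 with the highest control TPM, the ligase core, the EDEM proteins, VCP, UFD1 and NPLOC4. Other ERAD genes are named where past it without overlap, up to 5 in each direction. The members and lists were chosen with earlier results of these data known.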

Additional observations from a re-analysis of the deposited data

How the results depend on the processing

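EDEM3, UBXN4 and UBQLN1 were past the threshold in all 16 alternatives, and 13 of the 15 ERAD genes past it kept their direction in each. With library size as the scaling, 1 ERAD gene was higher, the ERAD median was -0.052, and 8 other ERAD genes were lower and 2 higher. Log2 fold changes were then -0.031 for HERPUD1, -0.052 for ERLEC1, -0.062 for UBE2G2, -0.056 for VCP, -0.020 for UBXN6 and -0.048 for NGLY1. Without a filter the ERAD median was 0.012. With limma and a pseudocount of 1, 2073 genes passed, with 4 ERAD genes lower and 1 higher and 2 other ERAD genes higher. With a pseudocount of 0.1, 1536 passed, with 3 ERAD genes lower and 1 higher and 1 other ERAD gene higher. Of the other ERAD genes lower in the main fit, UBE4A, ERLIN2 and UGGT1 passed with both pseudocounts, and YOD1 passed with neither. With the replicate block, 4 ERAD genes were lower and 5 higher, and 2613 genes passed in all. Deviations from the group mean, on the log2 CPM scale and across genes, had Pearson correlations of -0.036, -0.005 and -0.112 between libraries with the same replicate number, which showed no pairing.

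With the length and GC trend removed, 1671 genes passed, with 3 ERAD genes lower, and 1 other ERAD gene lower and 8 higher. Log2 fold changes were then 0.019 for EDEM1, 0.10 for MARCHF6, 0.078 for UBE2J1, 0.064 for NPLOC4, -0.033 for UBXN6, -0.0076 for NGLY1 and 0.027 for BAG6. With the replicate block as well, 1385 genes passed, with 3 ERAD genes lower and 3 higher and 1 other ERAD gene lower, and these values were 0.019, 0.10, 0.077, 0.064, -0.034, -0.011 and 0.027. Of the other ERAD genes higher in the main fit, UBXN1 and NSFL1C passed with the block and the removal together, and STUB1, BCAP31 and SGTA did not.

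When single libraries were omitted, 1630 to 4312 genes passed, 4 to 10 ERAD genes were lower and 1 to 11 higher, the ERAD median was 0.014 to 0.045, and 2 to 7 other ERAD genes were lower and 2 to 8 higher. Log2 fold changes then ranged from -0.021 to 0.065 for ERLEC1, -0.19 to 0.026 for RNF139, -0.052 to 0.0018 for UBE2J1, -0.020 to 0.043 for UBE2G2, -0.0020 to 0.033 for VCP, -0.020 to 0.095 for NGLY1 and -0.016 to 0.015 for BAG6. The baseline median was 80.05 TPM by the longest transcript and 71.1 TPM by the canonical transcript, a length chosen after seeing the data, and 58.1 to 59.1 TPM with a control left out. The cause was not tested for any of these changes.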
